A study of Mus musculus with 2 samples.

Results

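Non-cycling astrocytes were examined in single-cell RNA sequencing of mouse spinal cord. A cell was taken as one when it had at least 1 unique molecular identifier (UMI, a tag that marks 1 captured RNA molecule) in 4 or more of 9 marker genes, namely Aqp4, Agt, Slc6a11, Gjb6, Cldn10, Slc39a12, Ntsr2, Acsbg1 and Slc7a10. It also had to have a UMI in at most 1 of 5 genes of other cell types (Pdgfra, Cx3cr1, P2ry12, Cldn5 and Ccdc153) and fewer than 3 UMIs summed over 10 cell cycle genes (Top2a, Mki67, Cdk1, Birc5, Ccnb1, Cenpf, Ube2c, Hmmr, Tpx2 and Nusap1). Cells with 200 to 4000 detected genes and less than 10% of UMIs from mitochondrially encoded genes were considered, and barcodes of the SMA library that were also listed for the Con library were left out. The rule found 3032 astrocytes among 17043 such cells (of 52340 barcodes in all), 1341 of 6787 in SMA and 1691 of 10256 in Con. The rule reads the same counts that are described here, so the levels of its genes are a description of how the cells were chosen.

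Whole spinal cords were taken at postnatal day 4 from mice of the severe Taiwanese model of spinal muscular atrophy on the FVB background. Animals labelled SMA had the genotype mSmn-/-, hSMN22tg/0, that is, no intact mouse Smn1 and a transgene with human SMN2. Their control littermates, labelled Con, were mSmn+/-, hSMN22tg/0, so the transgene was carried by both groups and the controls kept 1 intact allele. Cords of 3 littermates were pooled for each library and there was 1 library per group, so nothing here was tested across animals. Their sexes are not given in the sources used here.

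Astrocytes are the glial cells that take up glutamate and GABA from around synapses, buffer potassium, carry water at their endfeet on blood vessels, couple to one another through gap junctions, and supply neurons with lipids and synapse-forming proteins. In the first postnatal days those of the spinal cord are still maturing and some still divide. White matter (fibrous) astrocytes hold more of the filament protein GFAP than grey matter (protoplasmic) ones, and injured or stressed astrocytes raise GFAP and other reactive genes. The protein SMN, whose loss causes spinal muscular atrophy, helps to assemble the small nuclear ribonucleoproteins of splicing and the U7 particle that trims the 3′ ends of histone messenger RNAs.

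The astrocytes of both libraries were sequenced to nearly the same depth. The median was 5876 UMIs and 2293 genes per cell in SMA and 5965 UMIs and 2358 genes in Con, and the median mitochondrial share was 6.87% and 7.10%. Together they held 8516091 UMIs in SMA and 11049540 in Con, which sets the counting error. Levels below are CPM, the UMIs of a gene summed over the astrocytes of a library and scaled to a common total of 1e6. Differences are log2 ratios of SMA over Con CPM with exact 95% intervals that cover counting error only, not the spread between animals or preparations. A gene was called higher or lower past a 1.5-fold ratio.

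Several features of the libraries move with the comparison. Of the 1691 Con astrocytes, 1368 (80.9%) had a barcode also listed for SMA, where that barcode held a median of 17.8% of the Con copy's UMIs. Such barcodes were left out of SMA, and each main value was therefore also computed with them kept and against the Con astrocytes whose barcode was not listed for SMA. The 1091 SMA cells so added held Xist at 652 CPM, so values with them kept mix cells that are near Con in this gene into SMA. Xist, the RNA that silences 1 X chromosome in female cells, was at 0.235 CPM in SMA and 682 CPM in Con, with a UMI in 986 Con astrocytes (58.3%), and the 4 Y-linked genes listed were all past 1.5-fold higher in SMA. Sex and genotype cannot be told apart in the pooled comparison, and values were also computed over astrocytes without an Xist UMI. Haemoglobin and other red cell genes took 12378 CPM of the SMA astrocytes and 42788 CPM of the Con astrocytes, up to 93.1% and 92.9% of the UMIs of a single cell.

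Astrocyte genes that the rule did not use were also high in these cells. Summed over 22 astrocyte genes outside the rule (among them Slc1a3, Slc1a2, Aldoc, Gja1, Sox9 and Sparcl1), the level was 22502 CPM in SMA and 21298 CPM in Con. Against non-cycling oligodendrocyte precursors, 21 of the 22 were past 1.5-fold higher in the astrocytes in both libraries, where 15.4% of all 12314 genes were. The precursor rule allowed a UMI in at most 1 of 7 genes that summed to 3477 CPM in SMA and 3800 CPM in Con astrocytes. That comparison was therefore partly fixed by the choice of cells. Against ciliated ependymal cells 20 of 22 were past 1.5-fold higher in both libraries, where 18.8% of 11436 genes were. The astrocyte RNA of a cell went with its number of marker genes. Cells with 3 markers, just outside the rule, held 3841 CPM of these 22 genes in SMA and 3294 CPM in Con, cells with 4, just inside, held 7201 and 6968 CPM, and cells with 9 held 27337 and 26492 CPM. The 118 SMA and 166 Con cells with 4 markers thus carried far less astrocyte RNA than most, and their 9 oligodendrocyte precursor markers summed to 1751 and 1942 CPM, against 496 and 685 CPM in cells with 9. No marker of another cell type on the lists was at 0 in the astrocytes.

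**Figure D1:**
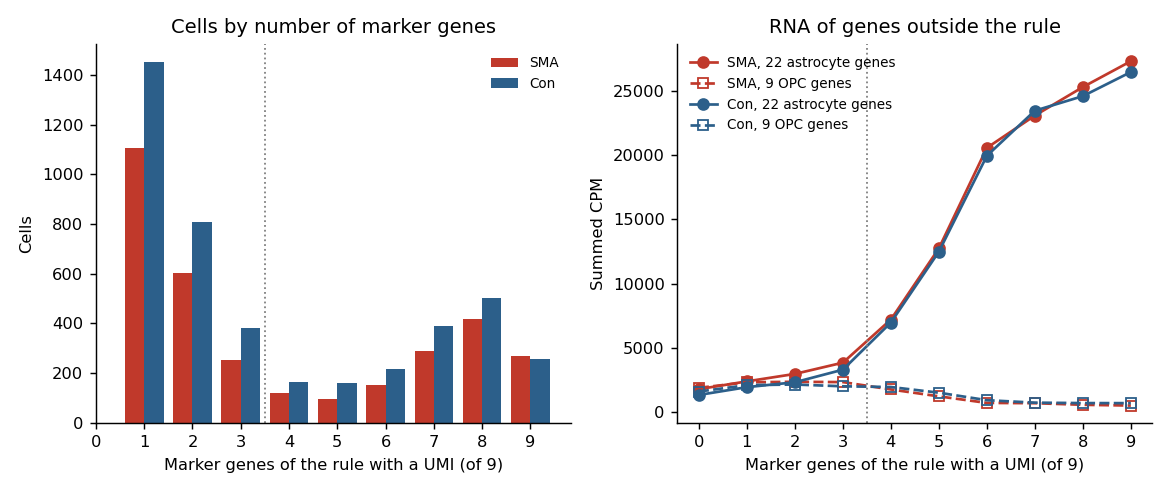
Cells of each library by the number of the 9 marker genes with a UMI (left, count of cells) and the summed CPM of 22 astrocyte genes outside the rule and 9 oligodendrocyte precursor markers in them (right), with the dotted line at the limit of the rule. Astrocyte RNA climbed from 7201 CPM at 4 markers to 27337 CPM at 9 in SMA and from 6968 to 26492 CPM in Con, while the precursor markers went the other way.

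Astrocytes made up 19.8% of the SMA cells considered (95% Clopper-Pearson interval 18.8 to 20.7) and 16.5% of the Con cells (15.8 to 17.2), a log2 ratio of 0.26. It was 0.15 with the shared SMA barcodes kept, 1.36 with the mitochondrial limit at 5% and 0.093 with it at 20%. The difference was not seen after thinning. When each cell was thinned to 2000 UMIs, leaving out 194 SMA and 2279 Con cells with fewer, the shares were 18.1% and 18.2%, a log2 ratio of -0.003 (-0.103 to 0.097). Thinning and leaving out shallow cells were done together and cannot be told apart here. Of all astrocytes, cycling or not, the cycling ones were 14.2% (12.5 to 16.03) in SMA and 15.7% (14.1 to 17.3) in Con.

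The most abundant transcripts, apart from mitochondrial, ribosomal and haemoglobin ones, included genes of secretion and of lipid handling. Cst3, the secreted protease inhibitor cystatin C, was at 36899 CPM in SMA and 26428 CPM in Con, and was detected in every astrocyte. The nuclear RNA Malat1, at 36353 and 30965 CPM, had the highest mean. Apoe, the main lipid carrier of the brain, gave 163471 and 213364 UMIs with a log2 ratio of -0.01. The fatty acid binding protein Fabp7, a gene of radial glia and young astrocytes, was at 8555 and 9427 CPM, and Sparcl1 (hevin), which promotes synapse formation, at 6853 and 6458 CPM. Fos, an immediate early gene, was at 5131 CPM in SMA and 4302 CPM in Con, among the 15 most abundant.

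Of the rule's markers, the water channel Aqp4 had a UMI in 93.9% of SMA and 94.6% of Con astrocytes and the GABA transporter Slc6a11 in 95.9% and 94.8%. Aqp4 was also seen in 8.92% and 10.9% of oligodendrocyte precursors and in 29.7% and 30.7% of ependymal cells. Among the 9, the connexin Gjb6 differed past 1.5-fold between the libraries, at 127 CPM in SMA and 80.7 CPM in Con (log2 ratio 0.65, 95% interval 0.52 to 0.78), with a UMI in 46.2% and 34.7% of astrocytes. Against Con astrocytes with a barcode not listed for SMA its ratio was 0.32.

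Genes of the working machinery of astrocytes were inside the 1.5-fold ratio, as most genes were. Among 10360 genes that reached 100 UMIs in the astrocytes, 280 (2.7%) were past 1.5-fold higher in SMA and 321 (3.1%) past 1.5-fold lower, 5.8% in all, with a median log2 ratio of -0.02. None of the 22 astrocyte genes outside the rule passed that ratio in either direction (median 0.02), and none of 12 genes of water, potassium and coupling (median -0.01) or of 10 genes of transmitter uptake and metabolism (median 0.16). The potassium channel Kcnj10 was at 111 CPM in SMA and 113 CPM in Con (log2 ratio -0.02, -0.14 to 0.11). The glutamate transporters Slc1a2 and Slc1a3 were at 831 against 690 CPM (0.27) and 1030 against 1042 CPM (-0.02), and glutamine synthetase, Glul, at 851 against 654 CPM (0.38). The same held for 14 receptors of astrocytes, 18 glial transcription factors, 10 dorsoventral patterning factors and 7 fibrous astrocyte genes, with 0 past 1.5-fold in each list. Among the transcription factors the BMP target Id3 came nearest, at 948 CPM in SMA and 1367 CPM in Con (-0.53).

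The SMN genes themselves were inside the 1.5-fold ratio. Smn1 had 385 UMIs in SMA and 467 in Con, 45.2 and 42.3 CPM (log2 ratio 0.10, -0.10 to 0.29). Counts of 3′ reads per gene do not say which exons the transcripts held, so this value does not check the knockout. None of 8 measured genes of the SMN complex and none of 8 Sm core proteins passed 1.5-fold, a count of 0 that is near the 5.8% of all genes in lists this short. The median of the Sm core genes was 0.24. Gemin8 was the lowest of the former at -0.45 (-0.78 to -0.12).

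Most measured targets of p53, the tumour suppressor that halts the cell cycle or triggers apoptosis after DNA damage, leaned higher in SMA. Of 24 listed targets 18 had 100 UMIs or more, 8 were past 1.5-fold higher in SMA and 0 lower, against the 2.7% and 3.1% of all genes, and 17 were above 0, where 47% of all genes were, with a median log2 ratio of 0.57. Of the 18, 8 were past the ratio with the shared barcodes kept, 8 (and 1 lower) against Con astrocytes with a barcode not listed for SMA, and 10 without cells holding an Xist UMI. Cdkn1a, which encodes the cell cycle inhibitor p21 (chromosome 17, 29090976 to 29100727, GRCm38), had 1962 UMIs in SMA and 646 in Con, 230 and 58.5 CPM, a log2 ratio of 1.98 (1.85 to 2.11). It was detected in 45.4% of SMA and 18.7% of Con astrocytes. Its ratio was 1.82 with the shared barcodes kept, 1.86 against Con astrocytes with a barcode not listed for SMA, 2.53 without cells holding an Xist UMI, and 1.94 in cells with 6 or more markers when the highest cell of each library was left out.

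The other 7 targets past the ratio have varied roles. Bbc3 (PUMA), a BH3-only killer of the Bcl-2 family, had 162 against 79 UMIs (log2 ratio 1.41, 1.02 to 1.82), and the death receptor Fas 170 against 98 (1.17, 0.80 to 1.54). Phlda3, an inhibitor of Akt signalling, had 559 against 363 UMIs (1.00, 0.81 to 1.19). Gdf15, a stress-induced secreted cytokine, had 183 against 62 (1.94, 1.51 to 2.38), but its ratio was 0.83 against Con astrocytes with a barcode not listed for SMA. The stress sensor Sesn2 was at 0.90, cyclin G1 (Ccng1) at 0.77 and the p53 cofactor Trp53inp1 at 0.72. The remaining targets lay lower, with Rps27l at 0.56, the pore-forming Bax at 0.33, the p53 ligase Mdm2 at 0.26, Btg2 at 0.01 and Plk2, the 1 below 0, at -0.07 (-0.26 to 0.12).

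**Figure D2:**
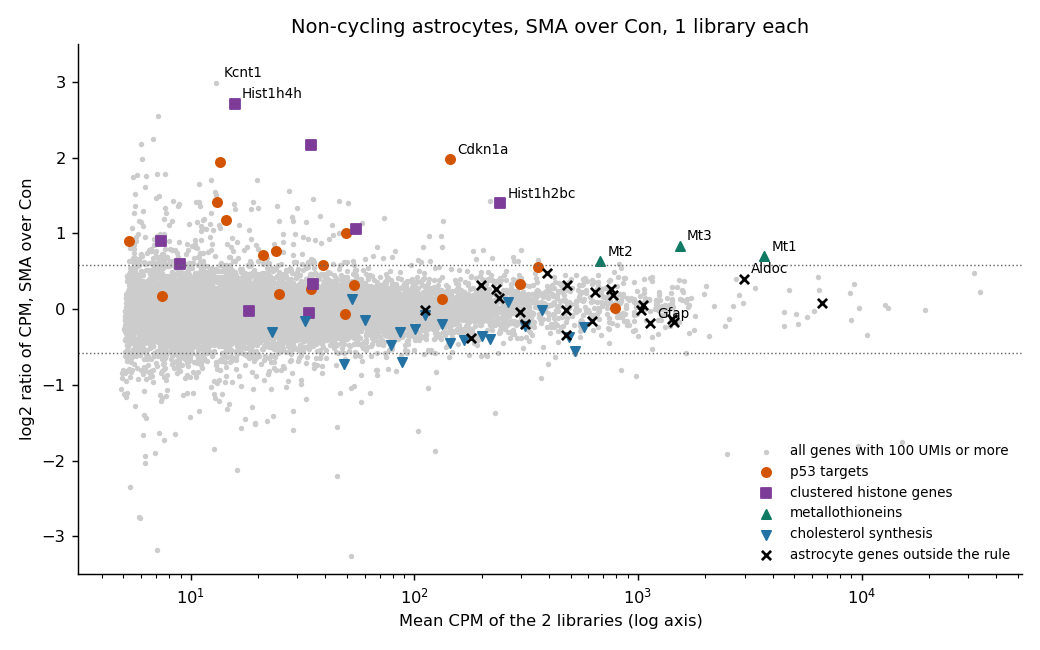
Log2 ratio of CPM, SMA over Con (vertical axis), against the mean CPM of the 2 libraries (horizontal log axis) for each gene with 100 or more UMIs in the astrocytes, with the p53 targets, histone genes, metallothioneins, cholesterol synthesis genes and astrocyte genes outside the rule marked and dotted lines at 1.5-fold either way. Cdkn1a at 1.98 and Hist1h4h at 2.71 stand well above the bulk of genes, whose median was -0.02. The axis ends at 3.5 either way and leaves 7 genes out. Genes without a UMI in 1 library, such as Retnlg, have no ratio and are not drawn either.

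The SMA excess of Cdkn1a was spread over many cells, with a tail of very high ones. Astrocytes without a Cdkn1a UMI were 732 (54.6%) in SMA and 1375 (81.3%) in Con. Those with 1 to 2 UMIs were 29.2% and 14.7%, and those with 3 to 5 were 9.40% and 3.13%. Those with 6 or more were 92 cells, or 6.86% (5.57 to 8.35), in SMA and 15 cells, or 0.887% (0.497 to 1.46), in Con, and they held 50.2% of all Cdkn1a UMIs in SMA and 21.2% in Con. The median depth of this last class was 7088 UMIs in SMA and 8731 in Con, above the 5724 and 5894 of cells without Cdkn1a.

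The sum of the remaining 23 p53 targets was higher at higher Cdkn1a within each library. It went from 0 through 1 to 2 and 3 to 5 to 6 or more Cdkn1a UMIs as 1661, 1976, 2646 and 4872 CPM in SMA and 1666, 1872, 2662 and 3539 CPM in Con. Single targets did not all do so, since Ei24 in Con was at 127, 126, 126 and 123 CPM. At equal Cdkn1a the sums of the libraries were thus close up to 5 UMIs, though single targets differed in both directions. At 3 to 5 UMIs Rps27l was at 511 CPM in SMA and 322 CPM in Con, and Btg2 at 894 and 1287 CPM. In the 92 SMA cells with 6 or more lay 111 of the 183 Gdf15 UMIs of the SMA astrocytes, 69 of the 162 of Bbc3 and 213 of the 559 of Phlda3. The 9 rule markers summed to 5939 CPM in these cells and 6415 CPM in SMA cells without Cdkn1a, and the 22 astrocyte genes outside the rule to 21368 and 21796 CPM. Both sums were the lowest of the 4 SMA classes in the cells with 6 or more.

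**Figure D3:**
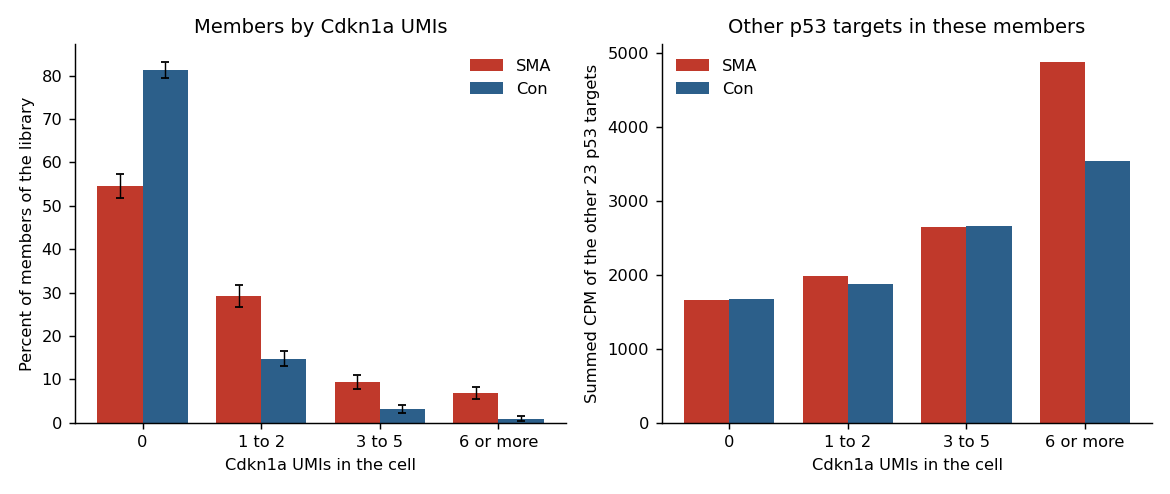
Left, percent of the astrocytes of each library by the number of Cdkn1a UMIs in the cell, with 95% Clopper-Pearson intervals. Right, summed CPM of the other 23 p53 targets in the same cells, which went from 1661 to 4872 CPM in SMA and from 1666 to 3539 CPM in Con.

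The promoters of these genes were searched for the p53 response element, the site that the list's name refers to. It consists of 2 abutting copies of the consensus p53 half-site, searched on both strands with at most 1 mismatch over the pair. RefSeq promoters (GRCm38.p6, 250 bases before to 50 after a start) were found for 19 of the 24 targets, and 4 held such a pair, where 29 of 32851 promoters (0.0883%) did. They are shown with the pair in capitals and 10 bases on either side. The pairs lie at chr17:29090928-29090947 (plus strand) for Cdkn1a, chr11:40755462-40755481 (minus) for Ccng1, chr9:66946296-66946315 (plus) for Rps27l and chr15:85859945-85859964 (plus) for Gtse1, each with 1 mismatch. Of these genes Cdkn1a and Ccng1 were past 1.5-fold, Rps27l was not, and Gtse1 was under 100 UMIs.
Cdkn1a: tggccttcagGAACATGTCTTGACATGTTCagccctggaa
Ccng1: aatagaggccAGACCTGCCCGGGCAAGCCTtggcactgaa
Rps27l: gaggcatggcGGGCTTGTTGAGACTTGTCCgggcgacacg
Gtse1: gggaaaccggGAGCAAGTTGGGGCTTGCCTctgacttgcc
The Cdkn1a pair lies 51 bases before the upstream of its 2 listed starts, and none was found at the downstream start. Single half-sites without mismatch were in promoters of 10 of the 19 targets and in 8.36% of all promoters. For pairs and half-sites alike, targets are counted by gene, the 19 having 28 promoters, and the shares of all by promoter, so the units differ.

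Among clustered histone genes, most of those measured were higher in SMA as well. These genes make the core and linker histones in S phase, their normal messages are not polyadenylated and end just after a stem-loop, and they are therefore poorly caught by oligo-dT libraries. Of 67 such genes 9 reached 100 UMIs, 6 were past 1.5-fold higher and 0 lower, against 2.7% and 3.1% of all genes, with a median log2 ratio of 0.90. Hist1h2bc had 2995 UMIs in SMA and 1476 in Con, 352 and 134 CPM (1.40, 1.31 to 1.49), with a UMI in 78.5% and 45.1% of astrocytes. Hist1h4h had 232 against 46 (2.71, 2.25 to 3.20) and Hist1h4i 479 against 138 (2.17, 1.89 to 2.45). Both H4 genes were thus detected in several times more SMA than Con astrocytes, 12.7% against 2.5% and 25.95% against 6.9%.

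The linker histone gene Hist1h1c was at 628 against 391 UMIs (1.06, 0.87 to 1.25), though at 0.29 against Con astrocytes with a barcode not listed for SMA. Hist2h3c1 was at 0.90 and Hist1h4d at 0.60. Hist3h2a at 0.32, Hist1h1e at -0.02 and Hist3h2ba at -0.06 stayed inside the ratio. Of the 9, 5 were past it with the shared barcodes kept and 6 without cells holding an Xist UMI, but 3 higher and 1 lower against Con astrocytes with a barcode not listed for SMA. Histone CPM did not follow Cdkn1a, since from 0 to 6 or more Cdkn1a UMIs its sum was 690, 650, 785 and 650 CPM in SMA and 315, 344, 355 and 336 CPM in Con. Cell cycle genes used by the rule gave 0, 1 or 2 UMIs in 997, 253 and 91 SMA cells and in 1261, 331 and 99 Con cells.

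The stem-loop that the U7 particle recognises beside was looked for in the transcripts of these histone genes (GENCODE M21) as GGC, any base, CTTTT, any base, AG, any base and GCC. It was present in 8 of the 9 measured genes, in 42 of all 67 and in 45 of 21877 protein-coding genes (0.206%). Hist1h2bc had no match. Shown in capitals with 5 bases on either side are those of the genes past 1.5-fold.
Hist1h4h: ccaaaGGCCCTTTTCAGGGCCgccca
Hist1h4i: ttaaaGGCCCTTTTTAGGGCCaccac
Hist1h1c: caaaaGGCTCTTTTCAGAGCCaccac
Hist2h3c1: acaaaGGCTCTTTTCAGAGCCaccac
Hist1h4d: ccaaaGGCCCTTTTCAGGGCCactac
The annotated transcripts ran on after this element, by 46 bases for Hist1h4h, 330 for Hist1h4i, 840 for Hist1h1c, 1162 for Hist2h3c1 and 770 for Hist1h4d. Hist1h4h lies at 23531050 to 23531519 and Hist1h4i at 22040636 to 22041362 on chromosome 13. Whether the counted molecules ended before or after the element cannot be read from gene counts.

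All 3 metallothioneins, small proteins that bind zinc and copper, were past 1.5-fold higher in SMA, where 2.7% of all genes were. Mt1 was at 4533 CPM in SMA and 2791 CPM in Con (log2 ratio 0.70, 0.68 to 0.72), Mt2 at 822 and 530 CPM (0.63, 0.58 to 0.69) and Mt3, the brain form, at 1969 and 1104 CPM (0.83, 0.80 to 0.87). Mt1 was detected in 99.6% and 97.8% of astrocytes, and Mt2 in 89.9% and 78.4%. With the shared barcodes kept, Mt1 was at 0.58 and Mt2 at 0.52, just inside the ratio, and Mt3 at 0.69, so that 1 of 3 passed it. In astrocytes with a haemoglobin share under 1%, 2 of 3 passed it. The summed metallothionein level was higher in SMA at each Cdkn1a class, at 6810 against 4352 CPM in cells without a Cdkn1a UMI and 9017 against 4186 CPM in those with 6 or more.

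The genes lie side by side on chromosome 8, Mt3 at 94152607 to 94154146, Mt2 at 94172664 to 94173568 and Mt1 at 94179082 to 94180327, on the plus strand. Their RefSeq promoters (GRCm38.p6) are given because the 3 moved together, with the core of the metal response element, TGCNCNC on either strand, in capitals. The windows are chr8:94178839-94179138 for Mt1, chr8:94172368-94172667 for Mt2 and chr8:94152357-94152656 for Mt3.
Mt1: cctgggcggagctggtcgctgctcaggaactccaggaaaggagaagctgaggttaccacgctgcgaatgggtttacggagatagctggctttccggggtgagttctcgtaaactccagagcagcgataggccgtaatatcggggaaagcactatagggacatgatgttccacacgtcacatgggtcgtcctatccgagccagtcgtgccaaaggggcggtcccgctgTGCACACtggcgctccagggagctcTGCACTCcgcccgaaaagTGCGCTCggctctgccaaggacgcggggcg
Mt2: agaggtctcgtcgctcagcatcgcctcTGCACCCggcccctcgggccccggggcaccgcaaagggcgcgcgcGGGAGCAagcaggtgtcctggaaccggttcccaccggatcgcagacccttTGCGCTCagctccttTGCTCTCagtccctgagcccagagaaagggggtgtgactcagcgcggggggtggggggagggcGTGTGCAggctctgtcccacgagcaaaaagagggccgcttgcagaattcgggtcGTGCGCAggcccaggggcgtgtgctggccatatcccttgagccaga
Mt3: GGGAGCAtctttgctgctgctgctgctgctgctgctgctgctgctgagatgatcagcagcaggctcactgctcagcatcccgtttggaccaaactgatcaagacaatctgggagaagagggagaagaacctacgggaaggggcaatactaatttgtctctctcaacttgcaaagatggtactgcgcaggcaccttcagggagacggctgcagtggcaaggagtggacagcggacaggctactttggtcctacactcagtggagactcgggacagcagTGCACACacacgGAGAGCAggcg
The core was found 3 times in Mt1, 6 times in Mt2 and 3 times in Mt3. At least 1 was in 51.0% of 32851 promoters, 3 or more in 7.10% and 6 or more in 0.225%.

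Genes of cholesterol synthesis leaned the other way by small amounts. Of 21 measured, 19 were below 0, where 53% of all genes were, with a median log2 ratio of -0.31. Past 1.5-fold, 2 were lower and 0 higher, against 3.1% and 2.7% of all genes. Among the 2 was Dhcr7, which catalyses the last step of the pathway, at 569 UMIs in SMA and 1204 in Con (-0.71, -0.85 to -0.56). Hmgcs1, which makes HMG-CoA, was at 425 and 622 CPM (-0.55), while the isomerase Ebp, at 0.13, was above 0. In cells with under 5% of mitochondrial UMIs the list's median was -0.019 and 14 of the 21 were below 0, 1 past the ratio and 3 past it upward.

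Among 11 lipid carriers and enzymes 1 was past 1.5-fold higher and 2 lower, against 2.7% and 3.1% of all genes. Lcat, which esterifies cholesterol on lipoproteins, had 411 against 977 UMIs (log2 ratio -0.87, -1.04 to -0.71). The desaturase Scd1 had 421 against 950 (-0.80, -0.97 to -0.63). The exporter Abcg1, with 58 against 43 UMIs, was at 0.81 (0.21 to 1.41). The ratios of both Lcat and Scd1 were below 0 at every level of Gfap described further on.

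Of 17 synapse-forming and phagocytic factors 1 was past 1.5-fold higher and 0 lower, near the share of all genes. Gas6, the ligand that bridges dying cells to the receptors Axl and Mertk, had 451 UMIs in SMA and 249 in Con (1.23, 1.01 to 1.46), and 1.39 against Con astrocytes with a barcode not listed for SMA. Mertk was at 0.54 (0.26 to 0.82) and Axl at -0.12 (-0.35 to 0.11). Of 8 matrix genes 1 was past 1.5-fold lower and 0 higher, against 3.1% and 2.7% of all genes. This was tenascin C (Tnc), at 474 against 1066 UMIs (-0.79), but at 0.14 against those Con astrocytes.

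Reactive genes past the ratio lay on both sides, where 2.7% of all genes were higher and 3.1% lower. Of the 8 measured pan-reactive genes 1 was past 1.5-fold higher (Cp, 0.80) and 1 lower (Cxcl10, -1.05), of 6 of the set called A1 1 each way (Fkbp5, 0.95, and Serping1, -1.15), and of 5 of the set called A2 1 each way (Tm4sf1, 0.81, and B3gnt5, -0.81). Cxcl10 was found in 1.5% of SMA and 2.7% of Con astrocytes and its ratio was 2.03 against Con astrocytes with a barcode not listed for SMA. Serping1 was at 0.65 there. Vimentin, Vim, was at 844 and 940 CPM (-0.16).

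Further lists of stress and signalling held few genes past the ratio, which 5.8% of all genes passed either way. Of 17 immediate early genes Atf3 was, at 1107 against 934 UMIs (0.62, 0.49 to 0.75), of 8 genes of the integrated and endoplasmic reticulum stress responses Sesn2, and of 21 signalling genes chosen in the study the syndecan Sdc4, at 3225 against 2433 UMIs (0.78, 0.71 to 0.86). Of 6 interferon genes 2 were, Ifitm3 at 0.68 and Bst2 at -0.90. None of 10 heat shock, 12 hypoxia and 18 glycolysis, glycogen and lactate genes was past it. Of 27 Hox genes, which set position along the body axis, 4 were lower (among them Hoxb9 at -0.84, Hoxa11 at -0.68 and Hoxc10 at -0.63) and 0 higher, against 3.1% and 2.7% of all genes, with a list median of -0.14.

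Outside the lists, the highest ratio spread over many astrocytes was that of Kcnt1, a sodium-activated potassium channel (chromosome 2, 25863734 to 25918273). It had 196 UMIs in SMA and 32 in Con (log2 ratio 2.99, 2.45 to 3.58), in 12.8% and 1.83% of astrocytes, and 2.51 against Con astrocytes with a barcode not listed for SMA. Tmem52, a membrane protein gene, had 104 against 23 (2.55), the sulfotransferase Sult1a1 95 against 26 (2.25), and the actin-oxidising Mical2 84 against 24 (2.18). Against Con astrocytes with a barcode not listed for SMA these were at 2.60, 1.47 and 0.97.

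Further leading differences lay in a single cell or in few cells. Of 8090 Ptgds UMIs in SMA, 7882 lay in 1 cell. Its log2 ratio was 8.23, and 3.08 with the highest cell left out, with a UMI in 3.13% of SMA and 1.71% of Con astrocytes. Among the lowest ratios the neutrophil genes Retnlg, S100a9 and S100a8 and the genes Cstdc5 and Camp had 232 of 233, 543 of 611, 339 of 396, 293 of 303 and 108 of 115 of their Con UMIs in 1 cell, as did 102 of those of Cstdc4, and Mfap4 had 401 of 1041. Retnlg had no UMI in SMA. Lum, Acta2, Gja4 and the red cell gene Alas2 had a UMI in at most 6.2% of Con astrocytes. Riiad1 (1.71) and Agr3 (1.98) were detected in 7.4% and 2.2% of SMA astrocytes.

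Markers of several other cells moved with these, where 2.7% of all genes were higher and 3.1% lower. Of 8 measured ependymal markers 7 were past 1.5-fold higher in SMA, with 452 CPM in SMA and 266 CPM in Con, and 67 SMA (5.00%) and 35 Con (2.07%) astrocytes also met the ependymal rule. Oligodendrocyte markers were lower in 4 of 5 (1548 and 2610 CPM), with Bcas1 at -1.88, fibroblast markers in 4 of 5 (217 and 354 CPM), mural markers in 3 of 4 (76.9 and 155 CPM), red cell markers in 5 of 5 and oligodendrocyte precursor markers in 3 of 9 (725 and 918 CPM). Microglial markers were at 340 and 335 CPM with 0 of 7 past the ratio, and neuronal ones were higher in 3 of 4 (217 and 165 CPM). Their part in the results was not tested. In cells with 6 or more rule markers, with the highest cell of each gene left out, Kcnt1 was at 3.25, Hist1h4h at 2.74, Hist1h2bc at 1.40, Mt1 at 0.65, Lcat at -0.91 and Scd1 at -0.79.

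Cell to cell, the most variable genes were largely shared by the libraries. Variation was taken as the variance of Pearson residuals over cells, which is near 1 for a gene that varies by counting alone, and its median over 8561 genes detected in 5% or more of astrocytes was 1.07 in SMA and 1.08 in Con. Outside haemoglobin, the 12 genes ranked highest in both held Cst3 (33.1 and 40.5), Malat1, the myelin gene Mbp, the growth factor Ptn, Gfap (16.1 and 33.3), Fos (18.8 and 18.7), Tmsb4x, Apoe and the Notch target Hes5. Of the top 12 genes of either library 9 (75%) were shared, of the top 50 38 (76%) and of the top 100 86 (86%). Haemoglobin genes of red cells filled the other 3 places of the 12.

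Gfap described a gradient within the astrocytes. Gfap had 9035 UMIs in SMA and 13311 in Con. Cells without a Gfap UMI were 296 (22.1%) in SMA and 637 (37.7%) in Con, those with 1 to 4 were 44.1% and 40.2%, and those with 5 to 19 were 26.7% (24.3 to 29.2) and 14.2% (12.6 to 15.9). Those with 20 or more were 96 (7.16%, 5.84 to 8.67) and 135 (7.98%, 6.74 to 9.38), and held 50.9% and 74.3% of the Gfap UMIs. Their depth was higher too, with a median of 9569 and 10559 UMIs against 5305 and 5178 in cells without Gfap.

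The summed Gfap level therefore depended on which cells were counted. It was 1061 CPM in SMA and 1205 CPM in Con (log2 ratio -0.18, -0.22 to -0.14), yet more SMA astrocytes had a UMI, 77.9% against 62.3%. The ratio was -0.81 without cells holding an Xist UMI, 0.05 in cells with 6 or more markers without the highest cell, and 1.498 against Con astrocytes with a barcode not listed for SMA. No direction can be given for the total of Gfap.

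The genes that went with Gfap across cells were chosen by the weaker of their correlations in the 2 libraries, so that both libraries show them is fixed by the choice. Correlations of Pearson residuals, over 1341 SMA and 1691 Con cells that share a library and its free RNA, were 0.69 and 0.82 for Fbxo2, a ubiquitin ligase subunit, 0.66 and 0.76 for the sodium pump regulator Fxyd6, and 0.61 and 0.68 for Hopx, a homeodomain-only protein. Cidea, a lipid droplet protein, was at 0.61 and 0.70, Aqp4 at 0.55 and 0.55, Tmsb4x at 0.54 and 0.59, and the small heat shock protein Hspb8 at 0.53 and 0.53. Against Gfap ran Igfbp2 (-0.28 and -0.32), Plpp3 (-0.23 and -0.30), the serine transporter Slc7a10 (-0.22 and -0.31), the protease inhibitor Serpine2, the glial factor Olig1 (-0.21 and -0.23) and Ptprz1. The negative correlations were weak. On log-scaled counts 15 of these 16 genes had the same sign in both libraries, although 6 of the 16 remained among the 16 named.

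**Figure D4:**
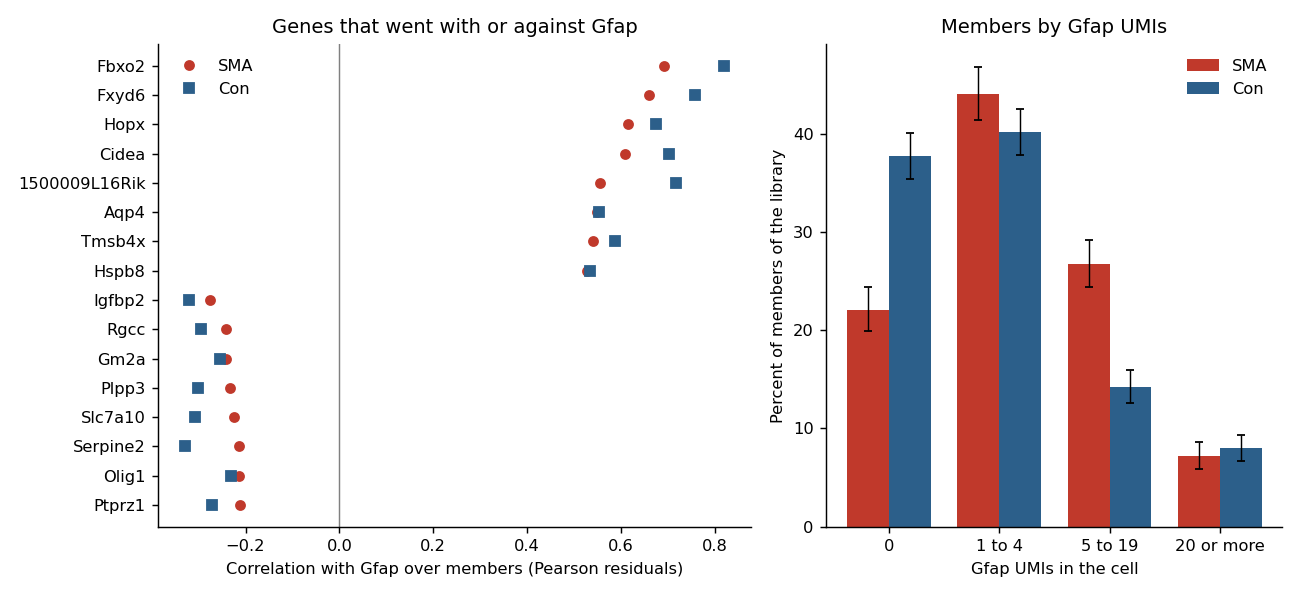
Left, correlation with Gfap over the astrocytes of each library for the 8 genes with the highest and the 8 with the lowest weaker correlation, from 0.69 and 0.82 for Fbxo2 down to the negative ones. Right, percent of the astrocytes of each library by Gfap UMIs in the cell, with 95% Clopper-Pearson intervals, where 37.7% of Con and 22.1% of SMA cells had none.

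The ratios of a few genes were also taken at each level of Gfap. From cells without Gfap through 1 to 4 and 5 to 19 to 20 or more UMIs, the Cdkn1a log2 ratio was 1.88, 1.87, 1.94 and 2.93. That of Hist1h2bc was 1.29, 1.45, 1.34 and 1.45, and that of Mt1 was 0.71, 0.68, 0.42 and 0.74. In the class of 5 to 19 all 3 metallothioneins were inside the 1.5-fold ratio. Kcnt1 was at 3.65, 2.86, 3.49 and 1.28, the last with an interval of -0.22 to 2.88 from 11 and 7 UMIs. Ratios below 0 were likewise found in each class, at -0.74, -0.41, -0.90 and -1.61 for Scd1 and -1.02, -0.59, -1.14 and -1.18 for Lcat. Fxyd6 was below 0 in each class as well, at -0.29, -0.83, -1.14 and -0.87. The ratio of Slc7a10 went from below to above 0, with -0.47, -0.25, 0.06 and 0.97.

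Set beside cell groups chosen by similar rules, the differences between the libraries were shared to unequal degrees. These groups were cycling astrocytes (222 SMA and 314 Con cells), non-cycling oligodendrocyte precursors (1637 and 1746) and ciliated ependymal cells (595 and 283). Each was compared within the same 2 libraries, so the sets of values are not independent. Some cells were also shared, since 67 SMA and 35 Con astrocytes met the ependymal rule and 23 and 24 the precursor rule. The ependymal rule set no cell cycle limit. The 10 cell cycle genes summed to 387 CPM in SMA and 483 CPM in Con ependymal cells, against 51.1 and 47.9 CPM in the astrocytes. The metallothionein Mt1 was at 0.70 in the astrocytes, 0.85 in cycling astrocytes, 0.86 in precursors and 0.64 in ependymal cells. Hist1h4h was at 2.71, 2.56, 2.24 and 2.94. Cdkn1a was at 1.98, 1.20, 2.08 and 0.55, and the medians of the p53 list at 0.57, 0.54, 0.56 and 0.07. Lcat was at -0.87, -0.49, -0.06 and -1.17, and Scd1 at -0.80, -0.57, 0.10 and -0.16. Kcnt1 was at 2.99, 2.76, 1.47 and 0.57. With 1 library per group these orders were not tested.

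**Figure D5:**
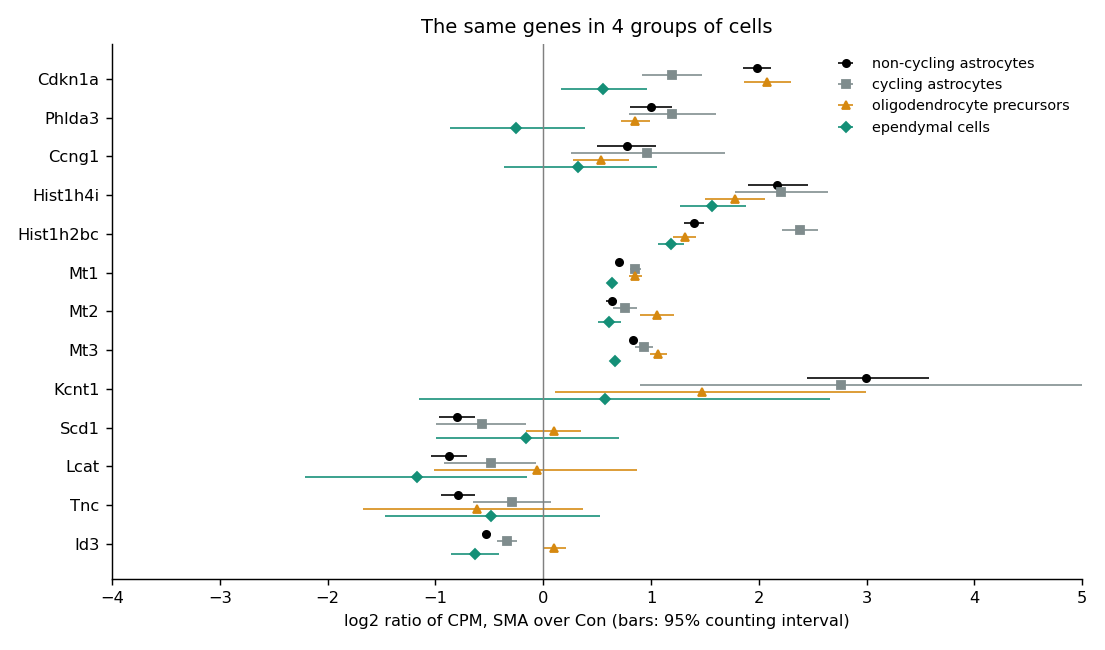
Log2 ratio of CPM, SMA over Con, for the same genes in non-cycling astrocytes, cycling astrocytes, oligodendrocyte precursors and ependymal cells, with bars for 95% counting intervals, 1 of which (Kcnt1 in cycling astrocytes) runs past the axis at 5. Mt1 was near the same height in each group, from 0.64 to 0.86, and Cdkn1a went from 0.55 in ependymal cells to 2.08 in precursors.

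Levels were also set against each like group, as a description, since the rules for the groups read the same cells. Ratios here are astrocytes over the other group within SMA and then within Con, and of all genes 15.4% were past 1.5-fold higher and 27.2% lower than in precursors in both libraries. Gbx2, a homeobox factor, was at 63.6 CPM in SMA astrocytes and 0.69 CPM in SMA precursors (log2 ratio 6.52, and 6.89 in Con). The progestin receptor Paqr6 was at 95.4 and 1.98 CPM (5.59 and 5.59), and the growth factor Pdgfd at 6.03 and 6.20. Lower were Enpp6, a gene of newly formed oligodendrocytes, at -4.32 and -3.57, and Chn2 at -3.89 and -3.70. All 3 metallothioneins were higher than in precursors, with medians of 3.05 and 3.21, and 14 of 17 immediate early genes, while 52 of 77 ribosomal protein genes were lower (-0.65 and -0.72).

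Against ependymal cells, which line the central canal and bear motile cilia, 18.8% of 11436 genes were higher and 19.7% lower in both libraries. The glutamate receptor Grm3 was at 4.42 and 4.43 and the protease inhibitor Serpina3n, a reactive gene of astrocytes, at 3.97 and 4.17. Cxcl2, Pf4 and Ccl7, which macrophages also express, were among the 8 highest, at 5.39 and 5.07 for Cxcl2. The axonemal gene Rsph4a was at -4.95 and -5.84 and the floor plate factor Foxa1 at -5.42 and -5.52. Cholesterol synthesis genes were past 1.5-fold higher than in ependymal cells in 18 of 21 (medians 1.81 and 1.61), and metallothioneins in 0 of 3, with Mt3 lower (-1.66 and -1.83).

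Against cycling astrocytes, from which the rule separates by cell cycle genes, 4.63% of 10975 genes were higher and 5.08% lower in both libraries. Of the 22 astrocyte genes outside the rule 4 were past 1.5-fold higher (medians 0.42 and 0.47). The aldolase Aldoc was at 3377 CPM in SMA and 2555 CPM in Con astrocytes and at 1745 and 1168 CPM in the cycling ones. Lowest were genes of mitosis and S phase such as Knl1, Kif2c, Esco2 and the histone gene Hist1h1b, as the rule fixes. Highest were Pmp2, Cldn19, Mog and Mal, which belong to myelinating cells, at 1 to 16 UMIs in the cycling SMA astrocytes.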

How the data were processed

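Whole spinal cords of postnatal day 4 mice were profiled by droplet 3′ single-cell RNA sequencing, with 1 library labelled SMA and 1 labelled Con. The deposited values are raw UMI counts per gene and barcode, which the authors made with Cell Ranger against mm10 and later analysed with Seurat 3.2.2 (per the submitters' processing notes). The authors kept cells of 200 to 4000 genes and under 10% mitochondrial UMIs, and these limits were applied here again. Doublets were limited by the upper gene limit and the genes of other cell types alone. No per-sample column was left unused (0).

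UMIs were summed over the astrocytes of each library and divided by their total to give CPM. Genes needed 100 UMIs in both libraries together, and 1.5-fold marked a call. With 1 library per group no test across samples was possible. Intervals are 95% and exact (Poisson, Clopper-Pearson or conditional binomial), except that of the ratio of shares, which is a normal approximation. They cover counting error only, of UMIs for levels and their ratios and of cells for shares and classes of cells. The total per library of the astrocytes, 8516091 and 11049540 UMIs, sets the precision. Pearson residuals used an overdispersion parameter (theta) of 100. Thinning drew 2000 UMIs per cell. Scripts were tested on simulated data.

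Genes were named by rule: the rule's markers, the 15 most abundant genes, the 12 highest and 12 lowest ratios by the interval bound nearest 0, the 12 most variable genes, the 8 highest and 8 lowest correlations with Gfap and, against each compared group, the 8 highest and 8 lowest ratios, plus list members past 1.5-fold (at most 4, otherwise the 2 most abundant). Mitochondrial, ribosomal, haemoglobin, Y-linked and X-inactivation genes entered as lists only. Further list members were named after their values were seen. The members and the lists were chosen with earlier results of these data known, so their counts are descriptions. The signalling list comes from the study and is not independent evidence. The list entries Aldoa and Ddit3 (2) were left out because their symbols occur more than once. Gene positions were looked up by identifier in GENCODE M21 (GRCm38), promoters in RefSeq GRCm38.p6. Python 3.11.15, numpy 2.4.6, scipy 1.17.1, pandas 2.3.3 and matplotlib 3.10.9 were used. Alternatives covered shared barcodes, the marker number, mitochondrial limits, cell weighting, scaling, depth, Xist, and UMI and fold limits. Values of a few genes are not reported here.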

Additional observations from a re-analysis of the deposited data

Results flagged for a closer look

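Of the SMA barcodes that were also listed for Con, and so left out, 1091 met the astrocyte rule. Xist was at 652.2 CPM in them, close to the 682 CPM of the Con astrocytes and far above the 0.235 CPM (2 UMIs) of the SMA astrocytes, and these cells enter no comparison except the values given with the shared barcodes kept. How these barcodes came to hold it was not tested.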

How the results depend on the processing

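With 1 library per group, animals, preparation and genotype cannot be told apart, and the intervals cover counting error only. No paired analysis was possible because each group is 1 library. The 1.5-fold limit at 100 UMIs reads genes of low level coarsely.

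The share of astrocytes, at a log2 ratio of 0.26, was 0.15 with the shared SMA barcodes kept, 1.36 under a 5% and 0.093 under a 20% mitochondrial limit, and -0.0029 after thinning. Against 280 genes higher and 321 lower, there were 742 and 33 under the 5% limit (201 SMA and 221 Con cells, where the median of all genes was at 0.33), 651 and 491 against Con astrocytes with a barcode not listed for SMA (323 cells, chosen after seeing the data, as were the limits on 6 markers and haemoglobin, the highest-cell setting and leaving out cells that met the ependymal or precursor rule), 478 and 485 at 50 UMIs, 106 and 134 at 300 UMIs, and 83 and 74 at 2-fold. There were 498 and 287 without Xist-positive cells and 209 and 196 with shared barcodes kept. The higher to lower split was 303 to 298 when centred on the median gene and 225 to 410 on a total without haemoglobin, mitochondrial and ribosomal genes.

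The median of the metallothioneins went from 0.58 with shared barcodes kept to 0.89 under the 5% limit. It was 0.75 with 3 or more markers, 0.80 against Con cells with their own barcodes, and 0.65 each on the reduced total, with 6 or more markers, with haemoglobin under 1%, and with 6 markers and the highest cell left out. The p53 list was at 0.33 over genes with 300 UMIs. Against Con cells with their own barcodes the histone list was at 0.47, cholesterol synthesis at -0.46, water and potassium genes at -0.14 and uptake genes at -0.035. Under the 5% limit cholesterol synthesis was at -0.019 and uptake at 0.39. Uptake was at 0.28 without Xist-positive cells, at 0.091 with 6 or more markers, at 0.095 with haemoglobin under 1%, and at 0.092 with 6 markers and the highest cell left out.

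A value past 1.5-fold counted as turned when its sign changed over genes with 100 UMIs under the setting. This was so for oligodendrocyte markers (1.24) and fibroblast markers (0.19) under the 5% limit, fibroblast markers (0.15) against Con cells with their own barcodes, and mural markers (0.015) without Xist-positive cells. With 3 or more markers it was so for Camp (1.60), Cstdc4 (0.22), Cstdc5 (0.72), S100a8 (0.63) and S100a9 (0.60). Below 100 UMIs, Acta2 was at 1.11 under the 5% limit and Lum at 0.48 against Con cells with their own barcodes. Signs of values inside 1.5-fold also changed, such as those of Gfap and the uptake list, and the list genes Tnc, Cxcl10 and Serping1, which are not in these counts, changed sign as given beside them. On a log scale 6 of the 16 genes named with Gfap remained, and weighting cells equally kept 30 of the 48 genes named against the like groups. The causes were not tested. Over all lists 641 values moved by no more than the counting error of a typical member, 127 by more and 4 turned. Over 64 named genes these were 625, 325 and 5, and over other results 32 stayed and 18 moved.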

Other observations

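Genes that glucocorticoids induce in many tissues were looked up after Sult1a1 and Fkbp5 had been seen to be high, so the list was chosen with values known. In the astrocytes the hypoxia factor gene Hif3a was at a log2 ratio of 1.79 (101 UMIs in SMA and 38 in Con), Sult1a1 at 2.25 and the receptor co-chaperone Fkbp5 at 0.95. The metallothioneins Mt1 and Mt2, also on the list, were at 0.70 and 0.63. The clock gene Per1 was at 0.38, while Tsc22d3 (GILZ) was at 0.05, Errfi1 at -0.04, Dusp1 at -0.22 and the kinase Sgk1 at -0.53. Pdk4 (0.47, 31 and 29 UMIs) and Zbtb16 (0.44, 22 and 21 UMIs) had fewer than 100 UMIs, with intervals that spanned 0.

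Nuclear genes of oxidative phosphorylation and ribosomal protein genes had medians slightly above 0. Of 90 oxidative phosphorylation genes 68 were above 0, where 47% of all genes were, with a median of 0.16, 3 past 1.5-fold higher and 2 lower (2.7% and 3.1% of all genes were). Of 77 ribosomal protein genes 56 were above 0 (median 0.10), with 1 past 1.5-fold higher. Of 13 mitochondrially encoded genes 4 were past 1.5-fold higher and 0 lower, but 5 were below 0, the median was 0.01 and their sum was 67084 CPM in SMA and 68951 CPM in Con.

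Genes that stood out in cells with 6 or more markers after the highest cell was left out, and that had not led before, included Ret, the receptor of GDNF family ligands, with 162 UMIs in SMA and 72 in Con (1.55), the potassium channel Kcnk1 with 868 against 489 (1.20) and Cystm1 with 1584 against 919 (1.16). Their values over all astrocytes are given.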
